A study of Mus musculus with 45 samples.

Results

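The genes described here are the 8 that make the molybdenum cofactor or encode the enzymes that carry it, of 57010 gene identifiers in the count table. They are Mocos, Mocs1, Mocs2, Mocs3, Gphn, Aox1, Xdh and Suox, and each was found once, by its symbol. Mocos was selected on its measured counts with alpha-eleostearic acid (ESA) and with vehicle, because its response depended on the state of the cells. Its values are therefore given as a description, without a test, wherever a vehicle or ESA group is compared, and it was tested only for ESA-Me + Fer-1 against ESA-Me. The other 7 genes were added for their place in the pathway. The samples were wild-type mouse embryonic fibroblasts (MEFs), connective-tissue cells cultured from embryos, in 3 states. Uninduced cells received no inducer. The other cells were made senescent with 200 µM H2O2 or with 2 µM etoposide, a topoisomerase II inhibitor, for 24 h, and then kept in normal medium for 5 days. Each state received 5 treatments for 12 h, namely ethanol as vehicle, ESA, ESA after ferrostatin-1 (Fer-1, a radical trap that blocks lipid peroxidation and ferroptosis), the methyl ester of ESA (ESA-Me), and ESA-Me after Fer-1. Fer-1 was given at 2 µM, 1 h ahead of the compound, and no group received Fer-1 alone. The dose is uncertain, because the labels of single samples state 2 µg/mL whichever the compound, whereas the described procedure used ESA at 10 µg/mL and its ester at 20 µg/mL. The compounds are therefore set side by side and not compared by a test. There were 45 libraries, 3 in each of 15 groups.

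The molybdenum cofactor is a pterin that holds molybdenum through a pair of sulfur atoms. Mocs1 makes its precursor from GTP, Mocs2 encodes both subunits of molybdopterin synthase, which put the sulfur in, Mocs3 recharges that synthase with sulfur, and Gphn (gephyrin) inserts the metal. Suox (sulfite oxidase) uses the cofactor in that form, whereas Xdh (xanthine dehydrogenase, the last enzyme of purine breakdown to uric acid) and Aox1 (aldehyde oxidase) work only after Mocos, the molybdenum cofactor sulfurase, has exchanged an oxygen on the metal for sulfur.

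Total counts were 13.5 to 59.6 megareads per library, with medians of 27.9 in uninduced, 22.4 in H2O2 and 21.6 in etoposide cells. Fibroblast markers were present, with 9 of 9 above 1 CPM (counts per megaread of the scaled library) at the median, while hepatocyte, endothelial and epithelial lists had 0 genes above it. Of 4 macrophage and blood markers, 3 exceeded 1 CPM and their summed level was 3.02 to 31.4 CPM. Of 4 adipocyte markers only Fabp4 exceeded it (median 7 CPM, with Adipoq at 0), and of 4 skeletal muscle markers only Des (median 28 CPM, with Myod1 at 0). The summed muscle list had medians of 59.8 CPM in uninduced, 18.3 in H2O2 and 19.1 in etoposide cells. The summed neural list had medians of 3.96, 0.294 and 0.367 CPM in the same order. Sox10, at up to 8.38 CPM, was its only gene above 1 CPM in any library. The part of these lists in the differences between states was not tested. Libraries with the same replicate number within a state deviated from their group means together, and Xist and Ddx3y, genes of the X and Y chromosomes that differ between sexes, differed between numbers (Xist was 217 to 350 CPM in uninduced replicate 2 and at most 0.0968 CPM in the other uninduced replicates). A model with the replicate number as a block is therefore given beside the main model wherever it changes a call. In vehicle cells of replicates 1 to 3, Ddx3y was 87.9, 17.5 and 85.9 CPM in uninduced cells. It was 21.1, 84.1 and 0 CPM after H2O2 and 9.87, 84 and 0 CPM after etoposide. Between uninduced and induced cells, the state and the cells behind the replicate numbers can therefore not be told apart. The library labelled etoposide, ESA-Me + Fer-1, replicate 3 stood apart from its number, with 47 CPM of Ddx3y where the other 4 etoposide libraries of replicate 3 had 0. Without it, no member passed the test of the main model in either comparison that used it, as with it. Mocos went from -0.08 to -0.07 on the log2 scale against ESA-Me and stayed at 0.08 against vehicle. The model with the block was not refitted without this library, so blocked values for that group include it.

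All values are from GRCm38 gene models. Mocos (ENSMUSG00000039616) spans chr18:24653691-24701575 on the plus strand, Mocs1 (ENSMUSG00000064120) chr17:49428362-49455435 on the plus strand, and Mocs2 (ENSMUSG00000015536) chr13:114818236-114832275 on the plus strand. Mocs3 (ENSMUSG00000074576) spans chr2:168230622-168232594 on the plus strand and Gphn (ENSMUSG00000047454) chr12:78226379-78684772 on the plus strand. Aox1 (ENSMUSG00000063558) spans chr1:58029931-58106413 on the plus strand, Xdh (ENSMUSG00000024066) chr17:73883895-73950196 on the minus strand, and Suox (ENSMUSG00000049858) chr10:128669894-128674073 on the minus strand. Gphn shares 147 exon bases with the antisense RNA Gm48226. The library kit keeps strand, but the sources used here do not say whether counting did, so the Gphn value is uncertain to that extent. The other members share 0 exon bases with another gene.

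All 8 members passed the filter on low counts, yet at very different levels. Per kilobase of merged exons and megaread, the median level over 45 libraries was 7.3 for Suox, 5.73 for Mocs1, 4.18 for Mocs2, 3.42 for Mocs3 and 3.19 for Gphn. Aox1 stood at 1.31 and Mocos at 1.29. Xdh was lowest, at 0.0312, with 1 to 22 counts in a library. The merged exon length of Mocs2, 9054 bases, pools 17 annotated transcripts, so its level per length depends on which of them the cells make. Across the 15 groups, the highest group mean of Mocos was 6.71 times the lowest, against 1.45 to 1.77 times for the 6 other members with more than 22 counts in every library, and 2.34 times for Xdh. The wide range of Mocos includes the ESA contrast it was chosen for.

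**Figure D1:**
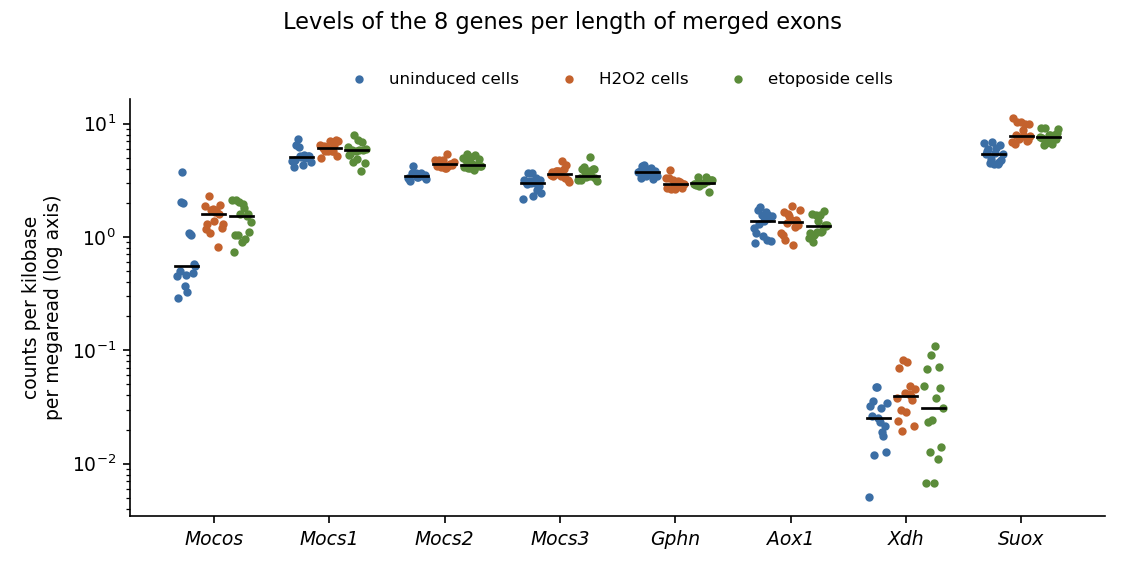
Level of each of the 8 genes in 45 libraries, as counts per kilobase of merged exons per megaread on a log axis, with 1 point per library, coloured by state, and a bar at the median of 15 libraries. Xdh, median 0.0312, lies far under the other 7 genes, and Mocos has the widest spread among uninduced cells.

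Mocos had few counts in uninduced vehicle cells, 31, 28 and 47 in replicates 1 to 3, or 1.45, 0.926 and 1.62 CPM. Under ESA the same cells held 140, 332 and 179 counts, or 6.57, 12.2 and 6.44 CPM. The groups did not overlap, and replicate 2 was the highest. The mean rose from 1.33 ± 0.361 CPM (SD, n = 3) to 8.39 ± 3.26 CPM (SD, n = 3), a log2 difference of 2.65 ± 0.38 (SE), which the gene was chosen for. Within replicate numbers, the ratio of ESA to vehicle was 4.52, 13.1 and 3.98. Without the ESA library of replicate 2 or any other left out in turn, the log2 difference stayed between 2.08 and 2.99. Hmox1, which encodes heme oxygenase and is a target of the oxidant-responsive factor NRF2, also had its highest uninduced ESA value in replicate 2, with 1370 CPM against 346 and 396 CPM in replicates 1 and 3. What moved with replicate 2 was not tested.

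With Fer-1 ahead of ESA, Mocos in uninduced cells was at 1.18, 1.5 and 1.06 CPM, within the range of vehicle. These libraries lay under every uninduced ESA library, by 2.75 ± 0.38 (SE) on the log2 scale. Against vehicle, which asks whether anything of the rise was left, the log2 difference was -0.09 ± 0.38 (SE).

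The ESA-Me libraries were not used in the choice of Mocos, but the vehicle libraries they are set against were, so this too is a description. In uninduced cells with ESA-Me, Mocos stood at 3.51, 3.41 and 3.32 CPM, all above the highest vehicle library. The mean was 3.41 ± 0.0945 CPM (SD, n = 3) and the log2 difference from vehicle 1.36 ± 0.37 (SE). The ratios within replicate numbers were 2.42, 3.68 and 2.06.

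The groups compared in ESA-Me + Fer-1 against ESA-Me share no library with the choice of Mocos. The spread of Mocos was estimated over all 45 libraries, however, and so were its replicate effects in the block. Vehicle and ESA libraries therefore entered those estimates. Under ESA-Me + Fer-1 the uninduced libraries held 1.57, 1.85 and 1.79 CPM, each below every ESA-Me library. The log2 difference was -0.97 ± 0.36 (SE) in the main model, which did not pass (edgeR adjusted p = 1, unadjusted p = 0.0103). With the replicate block it was -0.98 ± 0.22 (SE), with a 95% interval of -1.44 to -0.53 and an adjusted p of 0.0115, where 3.68% of all genes were called. DESeq2, fitted without the block, did not call Mocos. Leaving out 1 library at a time kept the blocked value between -1.10 and -0.90, while the adjusted p ran from 0.0336 to 0.109. The call ended without ESA-Me replicate 1 or 3 (0.0706 and 0.0642) and without ESA-Me + Fer-1 replicate 1 or 2 (0.0639 and 0.109). The ratios within replicate numbers were 0.446, 0.542 and 0.538.

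**Figure D2:**
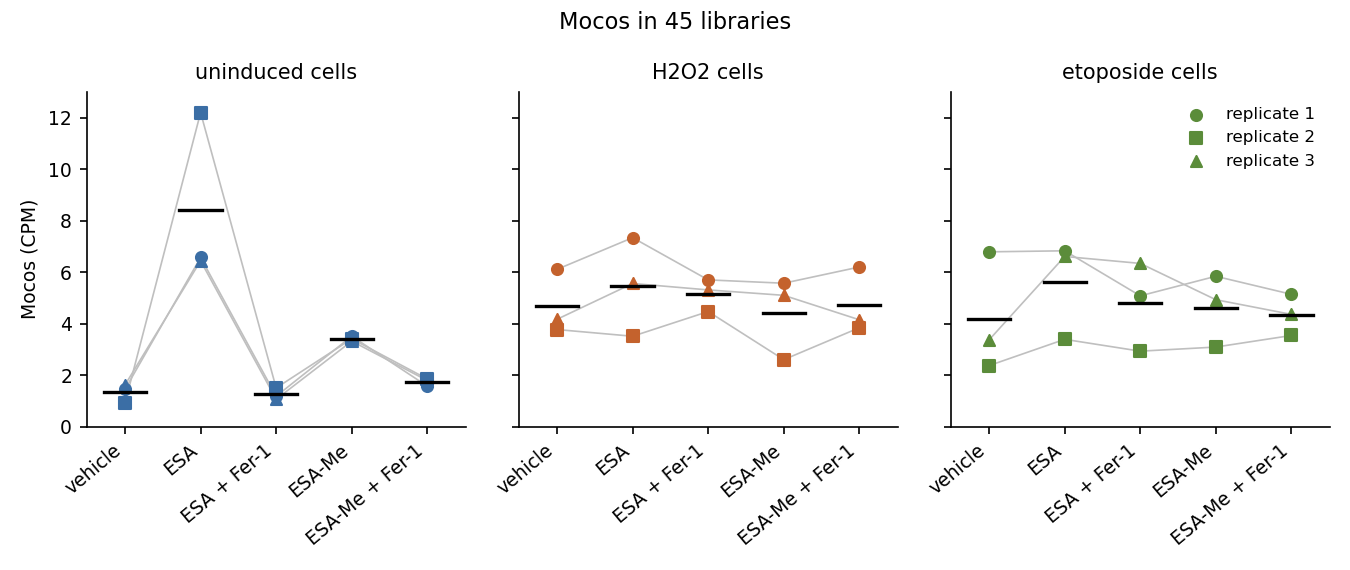
Mocos in CPM in each of 45 libraries, by state and treatment, where each symbol is a replicate number, grey lines join libraries with the same number within a state, and black bars are means of 3 libraries. Uninduced cells go from 1.33 CPM with vehicle to 8.39 CPM with ESA and 1.25 CPM with ESA + Fer-1, while the group means of H2O2 and etoposide cells stay between 4.17 and 5.61 CPM.

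Senescent cells already held more Mocos without any compound. Vehicle cells had 6.11, 3.77 and 4.17 CPM after H2O2 and 6.79, 2.37 and 3.37 CPM after etoposide, and every one of these libraries was above the highest uninduced vehicle library. The log2 difference from uninduced cells was 1.82 ± 0.37 (SE) with H2O2 and 1.63 ± 0.37 (SE) with etoposide. These are given without a test, since the vehicle libraries of all 3 states entered the contrast that chose Mocos, and the uninduced vehicle libraries served both comparisons. Because these are bulk samples, more cells with Mocos RNA and more RNA per cell cannot be told apart. Nor can the state be told apart from the cells behind the replicate numbers, which differed between uninduced and induced cells. Between the inducers, the log2 difference (etoposide minus H2O2) was -0.18 ± 0.35 (SE), and the libraries overlapped. This value is from the main model, which does not pair libraries by replicate number.

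In senescent cells Mocos with ESA differed less from its vehicle level than in uninduced cells. H2O2 cells had 7.34, 3.51 and 5.56 CPM with ESA, and the log2 difference from vehicle was 0.22 ± 0.35 (SE). Etoposide cells had 6.83, 3.39 and 6.61 CPM, and the difference was 0.43 ± 0.35 (SE). In both states the ESA and vehicle libraries overlapped, although each etoposide ESA library was above the vehicle library with its number. Without etoposide vehicle replicate 1, the library with 6.79 CPM, the etoposide difference was 0.96, and without H2O2 ESA replicate 1 the H2O2 difference was -0.05. The ESA change in H2O2 cells minus that in uninduced cells was -2.43 ± 0.51 (SE) on the log2 scale, and for etoposide cells it was -2.22 ± 0.51 (SE), which is the contrast that chose the gene. Every uninduced ratio was at least 3.98, whereas those of H2O2 cells were 1.2, 0.93 and 1.33 and those of etoposide cells at most 1.96. For ESA-Me, the change in H2O2 cells minus that in uninduced cells was -1.45 ± 0.51 (SE), and for etoposide cells -1.20 ± 0.51 (SE).

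Ordered by mean, Mocos was highest in uninduced ESA cells. Then came 10 groups of senescent cells, all with means of 4.17 to 5.61 CPM, followed by uninduced ESA-Me (3.41 CPM), uninduced ESA-Me + Fer-1 (1.73 CPM), uninduced vehicle (1.33 CPM) and uninduced ESA + Fer-1 (1.25 CPM). Of the 14 pairs of neighbours in this order, 13 overlapped in their libraries. The exception was uninduced ESA-Me, whose 3 libraries were all above those of uninduced ESA-Me + Fer-1.

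Of the steps that build the cofactor, Mocs2 rose in both kinds of senescent vehicle cells. It stood at 29.8, 29.2 and 28.5 CPM in uninduced cells, 42.9, 37.8 and 41.5 CPM after H2O2, and 45.4, 37.3 and 43.3 CPM after etoposide. Neither induced group overlapped the uninduced one. Both comparisons use the same uninduced libraries, and H2O2 and etoposide libraries with the same number went together, so they are not independent. The state and the cells behind the replicate numbers cannot be told apart here. The log2 rise was 0.48 ± 0.11 (SE) with H2O2 (edgeR adjusted p = 0.00221) and 0.53 ± 0.11 (SE) with etoposide (edgeR adjusted p = 0.000976). Gphn was lower after etoposide, at 10.9, 11.1 and 10.9 CPM against 14.1, 14.4 and 12.4 CPM, by -0.32 ± 0.11 (SE) on the log2 scale. That call sat at the threshold (edgeR adjusted p = 0.0473) and held only without uninduced replicate 3 (0.0377) when the 6 vehicle libraries were left out in turn, the other adjusted p reaching 0.174. With H2O2 the Gphn difference was -0.23 ± 0.11 (SE), with an adjusted p of 0.175.

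Mocs1, Mocs3 and Suox had higher means in both kinds of senescent cells without passing the test. After H2O2 the log2 differences were 0.36 ± 0.17 for Mocs1, 0.35 ± 0.17 for Mocs3 and 0.46 ± 0.20 for Suox (SE), with edgeR adjusted p of 0.158, 0.153 and 0.103. After etoposide they were 0.32, 0.19 and 0.43, with adjusted p of 0.224, 0.49 and 0.134. Aox1 differed by 0.25 ± 0.26 and 0.20 ± 0.26 (SE), with overlapping libraries. For Xdh, with 1 to 17 counts in the vehicle libraries, the 95% interval ran from -0.70 to 2.56 with H2O2 and from -0.79 to 2.48 with etoposide, so a change of several fold was not detectable at this depth. Of the 7 members tested, 1 rose with H2O2, where 17.5% of all 16194 genes tested were called, and 1 rose and 1 fell with etoposide, where 17.7% were called. Over the 7 members other than Mocos the median log2 difference was 0.36 with H2O2 and 0.32 with etoposide, where the median of all genes tested was 0.03 in each.

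**Figure D3:**
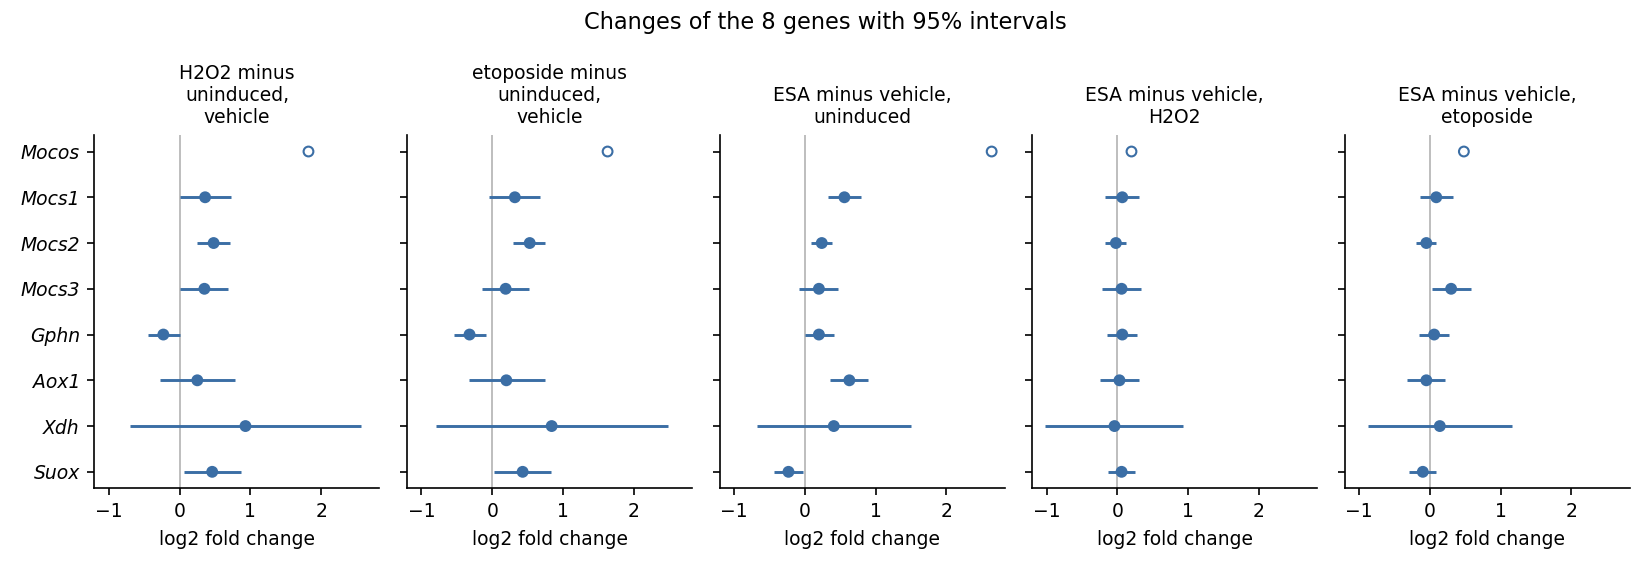
Log2 fold change of the 8 genes (points) with 95% intervals (lines) for H2O2 and etoposide against uninduced vehicle cells in the main model, and for ESA against vehicle in each state with the replicate block. Open points are the Mocos values, which rest on the libraries that chose the gene and are drawn without an interval. Mocs2 lies right of 0 in both senescence panels, and Mocs1, Mocs2 and Aox1 do so with ESA in uninduced cells.

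With ESA in uninduced cells, 3 members beside Mocos rose once the replicate number was in the model. Their upstream windows are printed because these are the members with a response to ESA that had no part in the choice. Each is the sequence before the start of transcription in RefSeq on GRCm38.p6, read along the gene from 5′ to 3′ and ended where the gene model begins, and capitals mark matches to 2 motifs. The motifs searched, on both strands, were the core of the antioxidant response element, TGACNNNGC, and the AP-1 site, TGANTCA. The windows are chr1:58029719-58029930 for Aox1, chr13:114817987-114818235 for Mocs2 and chr17:49428114-49428361 for Mocs1, all on the plus strand.
Aox1: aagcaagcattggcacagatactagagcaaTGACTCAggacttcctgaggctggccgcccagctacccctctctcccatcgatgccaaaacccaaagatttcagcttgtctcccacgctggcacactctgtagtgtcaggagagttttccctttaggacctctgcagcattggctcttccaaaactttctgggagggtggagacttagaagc
Mocs2: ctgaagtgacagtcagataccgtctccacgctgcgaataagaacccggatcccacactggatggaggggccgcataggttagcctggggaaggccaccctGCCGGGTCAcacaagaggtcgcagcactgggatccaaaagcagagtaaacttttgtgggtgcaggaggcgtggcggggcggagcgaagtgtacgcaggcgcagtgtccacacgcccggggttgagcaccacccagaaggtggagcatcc
Mocs1: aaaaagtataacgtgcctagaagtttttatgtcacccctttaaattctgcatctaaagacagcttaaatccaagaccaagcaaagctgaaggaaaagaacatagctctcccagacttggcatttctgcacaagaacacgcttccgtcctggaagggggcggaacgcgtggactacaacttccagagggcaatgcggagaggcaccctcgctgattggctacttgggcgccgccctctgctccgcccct
The Aox1 window held 1 AP-1 match, at position -220 counted from the RefSeq start, and the Mocs2 window 1 core match on the reverse strand, at position -150. The Mocs1 window held neither. Of 32851 RefSeq windows of 250 bases, 10.2% held the core and 6.75% the AP-1 site, and a match here describes letters only. Windows were in the RefSeq table for 6 of the 8 members.

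Mocs1, the enzyme of the first step of the pathway, went from 14.6, 12.8 and 14.7 CPM with vehicle to 20.1, 22.8 and 19.1 CPM with ESA in uninduced cells. The groups did not overlap, and the log2 change was 0.56 in both models, with an edgeR adjusted p of 0.178 in the main model and 0.000697 with the replicate block (SE 0.11). Aox1 went from 10.5, 7.61 and 9.39 CPM to 15.2, 11.4 and 16.1 CPM. Each ESA library was above every vehicle library, with ratios within numbers of 1.44, 1.5 and 1.71. The log2 change was 0.63 in both models (adjusted p = 0.343 in the main model, and 0.000778 with the block, edgeR quasi-likelihood test). Mocs2 went from 29.8, 29.2 and 28.5 CPM to 32.8, 37.8 and 32.8 CPM, a log2 change of 0.24 ± 0.07 (SE), with an adjusted p of 0.415 in the main model and 0.0162 with the block. The call for Mocs2 ended without either replicate 2 library, with adjusted p of 0.103 (vehicle left out) and 0.173 (ESA left out), whereas those for Mocs1 and Aox1 held without each of the 6 libraries, at adjusted p of at most 0.0182 and 0.0123. With the block, 19.8% of all genes tested were called in this comparison, and 0.142% in the main model, so 3 of 7 members beside Mocos is to be read against a broad response.

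The remaining members did not pass with ESA in uninduced cells. Suox was lower in all 3 numbers, with ratios of 0.884, 0.841 and 0.837 and a blocked log2 change of -0.23 ± 0.10 (SE, edgeR adjusted p = 0.0984). Gphn and Mocs3 both had a log2 change of 0.20, with 95% intervals of 0.00 to 0.41 and -0.08 to 0.47. The interval of Xdh ran from -0.68 to 1.5. Over the 7 members other than Mocos, the median blocked log2 change was 0.24, against -0.02 over all genes.

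**Figure D4:**
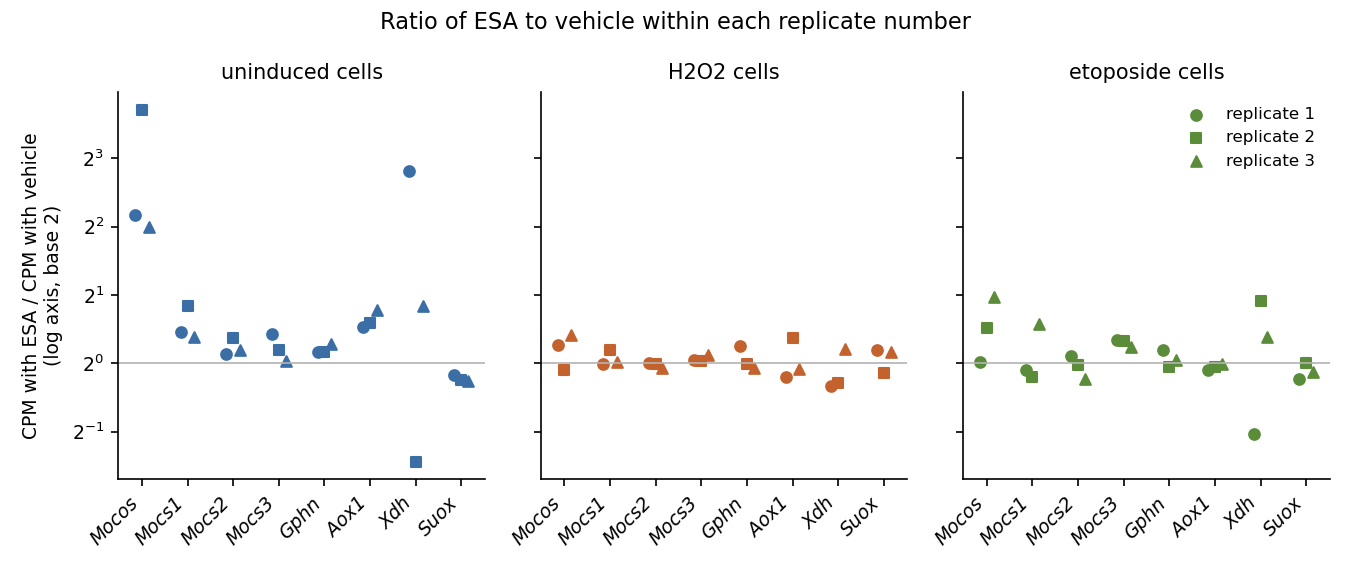
Ratio of CPM with ESA to CPM with vehicle within each replicate number, for the 8 genes in each state, on a log axis of base 2 where the grey line marks no difference. In uninduced cells all 3 ratios of Mocos (at least 3.98), Mocs1, Mocs2 and Aox1 are above the line and all 3 of Suox (at most 0.884) below it, while those of Xdh scatter on few counts.

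With Fer-1 ahead of ESA, Mocs1 in uninduced cells was at 16, 15.7 and 13.5 CPM, all below the ESA libraries. The blocked log2 change against ESA was -0.46 ± 0.11 (SE, edgeR adjusted p = 0.00471), while the main model, at -0.45 ± 0.18 (SE), did not call it (adjusted p = 0.277). With the block and without ESA replicate 2 it was -0.37, with an adjusted p of 0.0651. For Aox1 it was -0.32 ± 0.13 (SE), with an adjusted p of 0.0861 and libraries at 13.6, 8.77 and 12.1 CPM that overlapped both vehicle and ESA. For Mocs2 it was -0.13 ± 0.07 (SE, adjusted p = 0.205). Over all genes, 20.1% were called with the block and 0.179% without it. With ESA-Me against vehicle in uninduced cells, where 1.64% of genes were called with the block and 0% without, none of the 7 tested members passed. Mocs1 had a blocked log2 difference of 0.17 ± 0.11 (SE), Mocs2 0.14 ± 0.07 (SE) and Aox1 0.36 ± 0.13 (SE), with adjusted p of 0.512, 0.369 and 0.153, beside the ESA values of 0.56, 0.24 and 0.63. Nor did a member other than Mocos pass for ESA-Me + Fer-1 against ESA-Me, where 3.68% of all genes were called with the block and 0% without.

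Whether the ESA changes of the other members differed between states was tested directly. None of the 7 passed (edgeR quasi-likelihood test). With the block, the ESA change of Aox1 in etoposide cells minus that in uninduced cells was -0.68 ± 0.19 (SE, adjusted p = 0.0799), and for H2O2 cells -0.60 ± 0.18 (SE, adjusted p = 0.228). For Mocs1 these values were -0.47 ± 0.16 and -0.49 ± 0.16 (SE), with adjusted p of 0.187 and 0.293. At an unadjusted p under 0.05, 4 of these 7 members differed between H2O2 and uninduced cells and 3 between etoposide and uninduced cells, beside 7.87% and 11.8% of all genes at that unadjusted threshold, and DESeq2 called none of the 7. After adjustment, over all genes, the block called 0.259% and 0.741% in these comparisons and the main model 0%. Between H2O2 and etoposide cells, and in all 3 differences for ESA-Me, both models called 0% of genes.

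Within senescent cells, no tested member passed in any of the 12 comparisons of compounds with vehicle or of compounds with and without Fer-1, in the main model, with the block or by DESeq2. With the block the changes of Mocs1, Mocs2, Mocs3, Gphn, Aox1 and Suox lay between -0.25 and 0.37 on the log2 scale, and the lowest adjusted p was 0.134, for Aox1 with Fer-1 ahead of ESA in H2O2 cells (0.34 ± 0.13, SE, higher in 3 of 3 numbers). At an unadjusted p under 0.05 the block had at most 2 tested members in any of them, where 2.41% to 18.6% of all genes lay under that unadjusted threshold. After adjustment, the block called 1.48% with ESA and 0.908% with ESA-Me in H2O2 cells, and 0.611% and 0.284% in etoposide cells, where the main model called 0%. For Fer-1 with ESA against ESA it called 4.18% in H2O2 and 2.37% in etoposide cells (main model 0.0185% and 0%), and for Fer-1 with ESA-Me against ESA-Me 2.12% and 4.45% (main model 0% and 0.00618%). Against vehicle, compounds with Fer-1 called at most 0.0185% of genes in either model and any state, and no member.

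The rest of the pathway was read from lists. Of the other molybdenum enzymes, Aox2, Aox4 and Mtarc1 had a median of 0 counts and Aox3 of 3, while Mtarc2, which reduces N-hydroxylated compounds, had a median of 46.2 CPM. Mtarc2 rose in senescent vehicle cells, by 0.31 ± 0.11 with H2O2 and 0.44 ± 0.11 with etoposide on the log2 scale (SE, edgeR adjusted p = 0.0495 and 0.00499). Among 12 tested genes that supply sulfur and iron-sulfur clusters to cofactor synthesis, 4 rose with H2O2 and 4 with etoposide. The same 4 rose in both, namely Iscu, Lyrm4, Hscb and Nfs1, the scaffold, the partner protein, a cochaperone and the cysteine desulfurase of cluster assembly. These 4 genes are named after their values were seen, and both comparisons use the same uninduced vehicle libraries. None of the 12 passed with ESA in any state, in either model. The median log2 difference of the list was 0.22 and 0.24 in the senescence comparisons and 0.05 with ESA in uninduced cells.

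Around Xdh, 13 genes of purine breakdown and salvage were tested. The counts of this and the next 2 lists with ESA in uninduced cells stand beside 19.8% of all genes called with the block, and each list's share is near it. With the block, 2 rose and 1 fell with ESA in uninduced cells, the largest changes being Ampd3 (AMP deaminase, 1.25 ± 0.26 on the log2 scale, edgeR adjusted p = 0.000786) and Nt5e (0.77 ± 0.14, adjusted p = 0.000232), which makes adenosine from AMP outside the cell. Of 11 tested genes of sulfur amino acid breakdown, the source of the sulfite that Suox removes, 2 rose and 1 fell. Cdo1 (cysteine dioxygenase) fell by -1.37 ± 0.30 (SE, adjusted p = 0.00125) and Sqor, which oxidises sulfide, rose by 0.64 ± 0.11 (SE, adjusted p = 0.000127). In H2O2 cells Got1, an aspartate aminotransferase, was the 1 gene of that list called with ESA under the block (0.46, edgeR adjusted p = 0.0353). Over all genes, the block called 1.48% there. Among 12 aldehyde dehydrogenases, which share aldehydes with Aox1 as substrates, Aldh1a1 fell by -1.11 ± 0.31 and Aldh1a3 rose by 0.89 ± 0.22 on the log2 scale (SE, adjusted p = 0.0109 and 0.00472), with 2 of 12 higher and 1 lower. With the block, Aldh1a3 also rose with ESA in H2O2 cells (1.23) and etoposide cells (1.16), with edgeR adjusted p of 0.00351 and 0.00994. Over all genes, the block called 1.48% and 0.611% there. Of 5 genes listed for tRNA thiolation, 1 was called with ESA in uninduced cells with the block, beside the same 19.8% of all genes. It was Urm1, the small modifier partner of Mocs3, which rose by 0.31 ± 0.10 (SE, adjusted p = 0.023). Mfsd5, a molybdate transporter, had a log2 change of 0.11 and was not called. In the main model none of these 5 lists had a called member with ESA.

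The NRF2 target list, 12 genes that answer to oxidants and electrophiles, was read for the same contrast. With ESA in uninduced cells 2 of 12 rose in the main model, beside 0.142% of all genes called. With the block 11 of 12 rose, beside 19.8% of all genes, with a median log2 change of 1.57 over the list against -0.02 over all genes. The main model called Osgin1 (2.64 ± 0.53, edgeR adjusted p = 0.0245) and Cbr3 (1.57 ± 0.31, adjusted p = 0.0208). With the block, 6 of 12 rose in H2O2 cells, beside 1.48% of all genes, and 2 of 12 in etoposide cells, beside 0.611%, led by Slc7a11, the cystine transporter (1.72 and 1.83 on the log2 scale), and Hmox1 (1.71 and 1.53). In both senescent states the main model called 0 of the 12. With the block, the ESA change itself was lower than in uninduced cells for 2 of 12 genes in H2O2 cells and 3 of 12 in etoposide cells. Over all genes, 0.259% and 0.741% were called there, in either direction. The main model called 0 of the 12 in these differences. Hmox1 rose from vehicle to ESA within every replicate number of every state, for instance from 292 to 1810 CPM in H2O2 replicate 1, where Mocos went from 6.11 to 7.34 CPM.

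The genes whose pattern over groups was most like that of Mocos were found among 11615 tested genes. Over the 15 group means of log2 CPM, the highest Pearson correlations were those of Map1a (0.958), Impact (0.951), Gabarapl1 (0.95), Cbr3 (0.947), Bcr (0.943), Pter (0.94), Zfand2a (0.939) and Caml (0.938). Each was higher in uninduced ESA than in uninduced vehicle cells and higher in senescent vehicle cells too. Map1a, a microtubule-associated protein, went from 125 to 231 CPM with ESA in uninduced cells and from 168 to 178 CPM in H2O2 cells. Cbr3, a carbonyl reductase, went from 5.56 to 16.5 CPM and from 11.4 to 15.2 CPM. After the mean of each replicate number in each state was removed, over 45 libraries, the closest were Gabarapl1 (0.938), which is a member of the autophagosome protein family, Hspb8 (0.904), Mlkl (0.89), Psmd11 (0.888), Psmc4 (0.886), Psmd1 (0.88), Map1a (0.868) and Gpatch1 (0.864). Psmd11, Psmc4 and Psmd1 are subunits of the proteasome's regulatory particle. Gabarapl1 and Map1a were on both lists. Among the members, Mocs1 had correlations of 0.89 and 0.73 with Mocos by these measures and Suox 0.45 and -0.39. The points share libraries and the strong uninduced ESA group, so these values are a description.

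**Figure D5:**
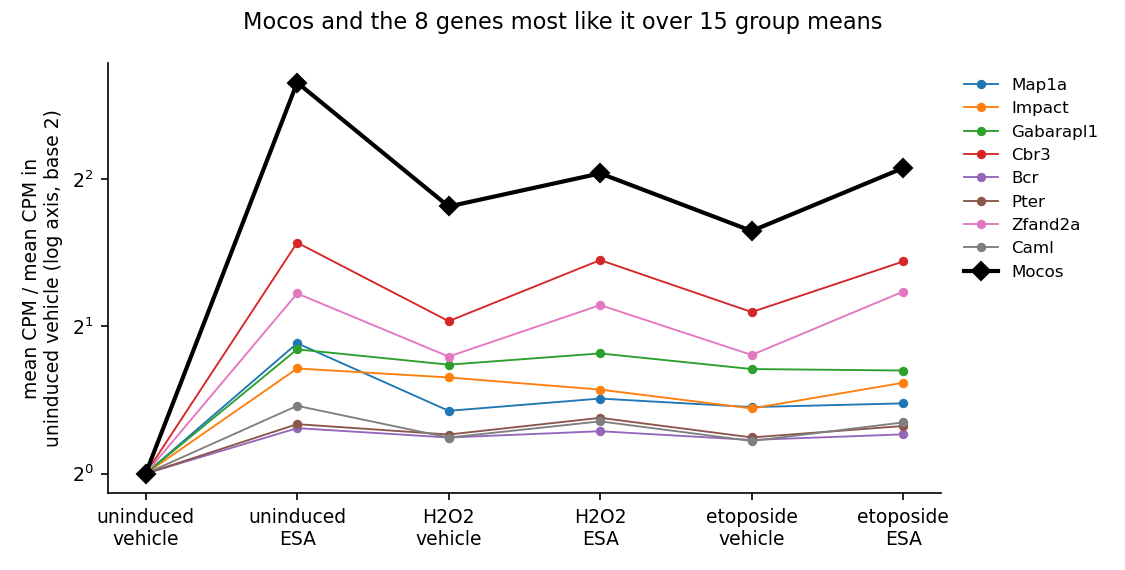
Mean CPM of Mocos (black diamonds) and of the 8 genes with the highest correlation with it over 15 group means, divided by the mean in uninduced vehicle cells, for vehicle and ESA in each state, on a log axis of base 2. All 9 lines rise with ESA in uninduced cells and lie above their start in senescent vehicle cells, and Mocos has the widest range.

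The 3 nearest coding genes on each side of Mocos were read for the same comparisons. Fhod3, an actin regulator 7048 bases away on the side of higher coordinates, rose in senescent vehicle cells by 1.81 ± 0.32 with H2O2 and 1.58 ± 0.32 with etoposide on the log2 scale (SE, edgeR adjusted p = 0.00012 and 0.000576), beside the 1.82 and 1.63 of Mocos. With ESA in uninduced cells its log2 difference was -0.21 ± 0.25 (SE, adjusted p = 0.628, with the block). Elp2, 14184 bases away on the other side and at a median of 81.1 CPM, did not pass in any of these comparisons, nor did Rprd1a and Tpgs2. Slc39a6, a zinc transporter, had a log2 change of 0.27 with ESA, with an adjusted p of 0.00472 with the block and 0.467 in the main model. Gm9955 had a median of 0 CPM.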

How the data were processed

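Total RNA (Trizol, Illumina TruSeq Stranded Total RNA) of 45 mouse embryonic fibroblast libraries was sequenced. The authors deposited whole-number read counts per gene for each library. FastQC, HISAT2 2.1.0, featureCounts, edgeR and GRCm38 are named in the submitters' processing notes, and their settings are not given in the sources used here. All 45 columns matched a sample by title. Coordinates and exon lengths came from GENCODE M21, which held 52029 of the 57010 identifiers.

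edgeR 4.0.16 (R 4.3.3) kept 16194 genes (filterByExpr), with 99.95% of counts, scaled them by TMM (factors 0.94 to 1.07) and fitted a quasi-likelihood model with 15 group coefficients to all libraries. Benjamini-Hochberg adjustment ran over all genes within each of 27 comparisons, called at 0.05. Errors of log2 values are standard errors. The members and lists were chosen with earlier results of these data known. Named genes were all 8 members, the 2 called genes of each list with the largest ESA change, 8 genes most like Mocos by each of 2 correlations (prior count 2, a group mean of at least 2 CPM), and 3 coding neighbours a side.

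Replicate numbers pair libraries within a state: over 18 comparisons, deviations from group means correlated at 0.26 to 0.82 for the same number and at most 0.06 for different numbers, across genes. Between H2O2 and etoposide vehicle cells the same number also went together, at 0.62 to 0.76, against at most -0.04 for different numbers. Their values are therefore not independent of each other. Between uninduced and induced vehicle cells the same number did not go together, at -0.22 to 0.05 with H2O2 and -0.2 to 0.04 with etoposide. The block nests the number in state, so it gives no value between uninduced and induced vehicle cells. The labels do not say that replicates came from separate animals, so p-values measure the spread between these samples. No 2 libraries of a group were copies (chi-square per gene 11.3 to 132). The fit was checked on simulated counts. Alternatives were other scalings and filters, DESeq2 1.42.0, the compared groups alone, the block, and left-out libraries. A few genes of the lists are not reported here.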

Additional observations from a re-analysis of the deposited data

Results flagged for a closer look

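The ESA change of Mocos differed between states. With the replicate number as a block, the log2 change in H2O2 cells minus that in uninduced cells was -2.44 ± 0.32 (SE), and for etoposide cells it was -2.15 ± 0.32 (SE). These differences are the reason Mocos was chosen, so they describe the gene and are no independent evidence. Leaving out single libraries kept the paired values between -2.71 and -2.07 for H2O2 and between -2.42 and -1.78 for etoposide.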

How the results depend on the processing

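Of 4061 values recomputed under alternatives, 4001 kept their side of the threshold or moved within the spread, 6 passed the threshold newly, 20 lost it, 34 moved further and 0 called values reversed. Within these, 416 values past the threshold in neither setting changed sign. The cause of the changes was not tested. With the replicate block, Mocos in uninduced cells had -0.98 for ESA-Me + Fer-1 against ESA-Me (edgeR adjusted p = 0.0115). It was the 1 of 8 members called there, beside 3.68% of all genes with the block and 0% in the main model. DESeq2, fitted without the block, called 0 of 8, and the blocked call ended when some single libraries were left out. Of the 7 members tested elsewhere, the block called 3 with ESA in uninduced cells and 1 for ESA + Fer-1 against ESA, where the main model called 0 (at an unadjusted p under 0.05 it had 3 and 1, and DESeq2 called 0 in both). On the compared groups alone, 1 was called with ESA in uninduced cells. For etoposide against uninduced vehicle cells, 1 was called instead of 2 with library totals, without the filter on low counts and on the compared groups alone, and 1 to 2 with libraries left out. With libraries left out, the log2 difference of Mocos with ESA ranged from -0.05 to 0.46 in H2O2 cells and from 0.14 to 0.96 in etoposide cells, and with ESA-Me from -0.13 to 0.69 in etoposide cells. For ESA + Fer-1 against ESA it ranged from -2.91 to -2.38 in uninduced cells and from -0.49 to 0.04 in etoposide cells. Against vehicle it ranged from 0 to 0.38 for ESA + Fer-1 in H2O2 cells, from -0.23 to 0.26 for ESA-Me + Fer-1 in H2O2 cells (0.04 with library totals) and from -0.21 to 0.6 for ESA-Me + Fer-1 in etoposide cells. Depth limits Xdh most, with 1 to 22 counts in a library.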
